A study of Mus musculus with 15 samples.

Results

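Interferon-stimulated genes were followed in mouse anterior prostate as a list of 43 named genes, written on the array with symbols such as OAS1A, DDX58 and TGTP. A probe belonged to a gene when its deposited symbol was the listed name or another symbol of that gene, and the brightest probe stood for each gene. All 43 genes had a probe. Of these, 41 were among the 16723 genes tested, and the probes of Ifit1 and Xaf1 were too dim to test. Total RNA of 15 mice was hybridised to single-colour bead arrays, 1 array per mouse, in a series titled for the Akt/mTOR pathway and prostate cancer that resists castration. Every mouse carried 1 copy of an allele labelled CE2. The 3 control mice carried no other labelled change and were intact. The 12 mutant mice also carried floxed alleles in 2 copies, of which 6 were intact and 6 were castrated, and the groups are called mutant intact and mutant castrated. There was no castrated control group, so castration can be read in mutant prostate alone. The labels record no treatment and give no age, no time since castration and no induction of recombination. Replicates were numbered in accession order, so a number names a mouse and pairs nothing.

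Interferons are secreted proteins that cells release on sensing viral or misplaced nucleic acid, and lymphocytes release interferon gamma. Type I and type III interferons act through receptor-bound kinases that activate STAT proteins, which join Irf9 and bind interferon-stimulated response elements (ISREs) in target promoters. Interferon gamma acts mainly through STAT dimers that bind gamma-activated sites (GAS), and some promoters carry both kinds of site. The products degrade viral RNA, block translation, restrict viral entry, sense RNA, modify proteins with the ubiquitin-like protein ISG15 or attract T cells. The pathway is also active in some tumours without infection.

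Promoter stretches are printed because these sites are the textbook route of induction and because the members behaved unequally in this study. RefSeq promoters (GRCm38.p6, 250 bases before to 50 after the gene start) were held for 34 of the 43 genes. An ISRE core was searched as GAAANNGAAA on both strands, and a GAS as TTCNNNGAA, which reads the same on both strands. The ISRE core was found in 19 of 34 members (55.9%) and in 3.99% of 27025 genes in the table. The GAS was found in 11 of 34 members (32.4%) and in 9.55% of the genes in the table. A match in letters is a description and not a binding site. Of the members shown, 7 have an ISRE core in capitals, each in a stretch of 60 bases that ends before the gene start, and Irf1 and Irf8 have a GAS in capitals.
Isg15, minus strand of chr4:156200856-156200915: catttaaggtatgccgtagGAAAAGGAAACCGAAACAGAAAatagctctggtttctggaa
Oas1g, minus strand of chr5:120887614-120887673: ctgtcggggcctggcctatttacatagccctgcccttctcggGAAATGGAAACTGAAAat
Ifit3, plus strand of chr19:34583348-34583407: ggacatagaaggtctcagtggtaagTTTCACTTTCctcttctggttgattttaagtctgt
Rsad2, minus strand of chr12:26456538-26456597: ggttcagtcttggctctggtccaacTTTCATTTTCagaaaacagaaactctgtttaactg
Cxcl10, minus strand of chr5:92349068-92349127: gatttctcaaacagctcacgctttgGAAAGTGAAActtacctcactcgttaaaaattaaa
Gbp2, plus strand of chr3:142620579-142620638: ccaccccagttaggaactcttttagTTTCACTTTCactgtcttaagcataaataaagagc
Igtp, plus strand of chr11:58199496-58199555: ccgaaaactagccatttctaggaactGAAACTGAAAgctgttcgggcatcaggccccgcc
Irf1, plus strand of chr11:53769898-53769957: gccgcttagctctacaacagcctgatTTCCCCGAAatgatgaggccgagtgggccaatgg
Irf8, plus strand of chr8:120736170-120736229: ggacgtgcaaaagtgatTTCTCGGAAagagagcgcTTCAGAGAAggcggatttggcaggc
In Isg15 there are 3 overlapping ISRE cores and in Oas1g 2, and Ifit3 has a further core outside the stretch shown. Igtp also holds a GAS, which starts 45 bases before the gene start, shortly before its ISRE core, and does not overlap it.

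Values are log2 intensities of the authors' processed signal, on which background had not been brought to 0, so changes of dim genes are understated. Background limits, set from 1487 olfactory and vomeronasal receptor probes, lay between 7.27 and 7.39 on the log2 scale, and between 42.2% and 48.2% of all probes exceeded them on an array. The luminal keratin Krt8 was above background on all 15 arrays. The prostate transglutaminase Tgm4 lay between 15.43 and 15.65 in control and the prostate protein Pbsn between 11.77 and 11.88. In mutant prostate Pbsn was above background on no array, and Tgm4 was above it on 5 of 6 mutant intact and 3 of 6 mutant castrated arrays. Pate4, a seminal vesicle transcript, reached 13.84 or more in control replicates 2 and 3, mutant intact replicates 2 and 3 and mutant castrated replicates 3 and 6, against 10.01 or less on the other 9 arrays. In whole tissue, fewer expressing cells and less RNA per cell cannot be told apart.

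Most interferon-stimulated genes were higher in intact mutant prostate than in intact control prostate. In limma, with Benjamini-Hochberg adjustment over all 16723 genes tested, 32 of 41 members were higher at an adjusted p under 0.05, 0 were lower and 9 were not called. Of all genes tested, 18.2% were called higher and 25.3% lower. The median log2 fold change was 2.10 over the members and -0.04 over all genes tested. In 33 of 41 members every mutant intact array lay above every control array, which held for 17.8% of all genes tested. Because 8 of the tested members were above background on no control array, they could pass the brightness filter through mutant arrays alone, and 6 of them were called. Among the other 33 tested members 26 were higher. Of these 33, Mx2 and Iigp1 (1 control array above background) and Dhx58 and Irf7 (2 control arrays) also needed mutant arrays to pass. Mx2, Dhx58 and Irf7 were among those called, so the 26 are not free of the filter either. With no filter, 31 of all 43 members were higher and 0 lower. Without the 4 intact arrays high in Pate4, which left 1 control array, 18 of 41 were higher, while the genes called higher fell from 3038 to 1410 of 16723. Among the 14 members no longer called were Isg15 (log2 fold change 3.20, adjusted p = 0.0758), Rsad2 (3.48, adjusted p = 0.0972), Trim30a (2.51, adjusted p = 0.0596) and Oasl1 (2.02, adjusted p = 0.241) in limma.

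**Figure D1:**
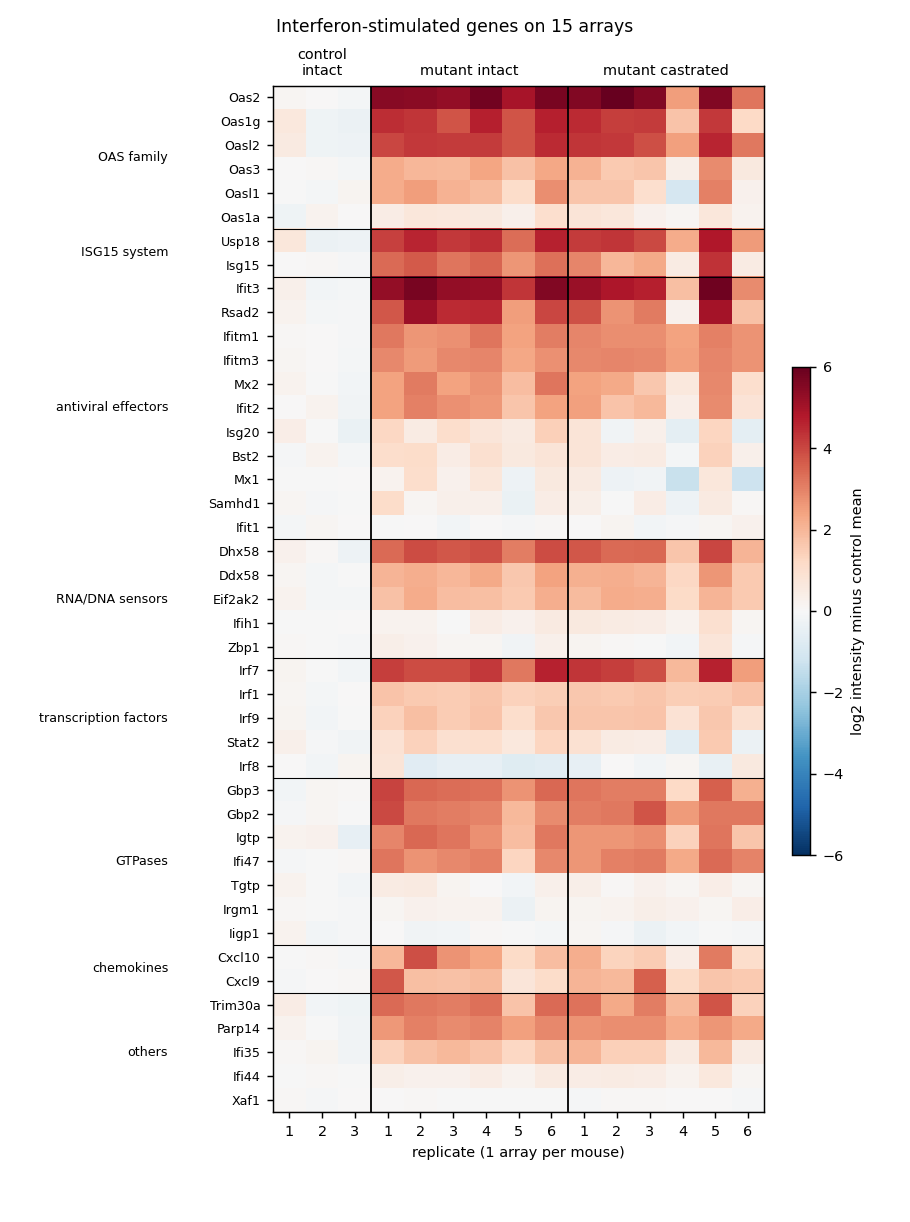
Log2 intensity of 43 interferon-stimulated genes on 15 arrays, as the difference from the mean of the 3 control arrays (colour). Rows are genes grouped by role and ordered by fold change, and columns are replicates of each group. Most rows are red in mutant prostate, and castrated replicates 4 and 6 have the lowest 2 castrated values in 33 of 41 tested rows.

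The 2'-5'-oligoadenylate synthetases make the messenger that activates RNase L, which cuts RNA, and all 6 listed members of this family were higher in mutant intact prostate. Oas2 measured 7.34, 7.26 and 7.11 in the 3 controls and 12.17 at the lowest, 12.66 at the median and 13.02 at the highest of 6 mutant intact arrays. No control array was above background for Oas2, and the difference was at least 38.8-fold (limma adjusted p = 6.11e-06). Oas1g measured 8.71, 7.81 and 7.75 in control and from 11.84 to 12.77 (median 12.44) in mutant intact, a 19.2-fold difference. The Oas1 genes are near-identical copies, and their probes can share signal.

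The relative Oasl2, which carries ubiquitin-like domains, measured 9.96, 9.16 and 9.12 in control and 13.19 to 13.88 (median 13.60) in mutant intact, 17.7-fold higher. Oasl1, which in mice restrains translation of Irf7, measured 8.94, 8.83 and 9.10 in control and from 10.05 to 11.74 (median 11.10) in mutant intact. That was a 4.27-fold difference (adjusted p = 0.0126). Oas3 was at least 3.31-fold higher, and Oas1a, close to background, at least 1.20-fold higher. Groups overlapped in none of the 6.

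Isg15 and its specific protease Usp18, which also restrains the interferon receptor, were both higher. Isg15 measured 7.58, 7.65 and 7.48 in control and from 10.21 to 11.26 (median 10.93) in mutant intact, a 9.77-fold difference (log2 fold change 3.29, SE 0.63, adjusted p = 0.000596). Usp18 measured 9.26, 8.26 and 8.27 in control and from 11.96 to 13.21 (median 12.93) in mutant intact, 18.6-fold higher. The Isg15 probe carried a provisional name on the array and was matched through its gene number, as were those of Xaf1 and of Ifit3b and Apol9a below.

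Of 10 tested antiviral effectors 7 were higher. Ifit3, one of the proteins that bind viral RNA and block its translation, measured 9.13, 8.63 and 8.67 in control and from 13.09 to 14.49 (median 14.07) in mutant intact. The difference was 37.0-fold (log2 fold change 5.21, SE 0.67, adjusted p = 1.79e-05). Rsad2, or viperin, which makes a chain-terminating nucleotide, measured 8.31, 8.0 and 8.03 in control and from 10.60 to 13.26 (median 12.36) in mutant intact, 16.7-fold higher. Every mutant intact array lay above every control array for both, although Rsad2 spread over more than 2 log2 units among mutant mice.

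The membrane proteins Ifitm1 (7.36-fold) and Ifitm3 (6.63-fold), which hinder viral entry, were higher, with SDs of 0.32 and 0.23 in mutant intact. Mx2 (6.14-fold, with 1 of 3 control arrays above background), Ifit2 (5.55-fold) and Bst2 (1.76-fold), which tethers budding virus, were also higher. Of Ifitm1, 5 probes gave values and differed in size, from a log2 difference of 0.59 on a dim probe to 2.88 on the brightest one. Of the 10 members, 3 were not called. The exonuclease Isg20 measured 9.57, 9.16 and 8.80 in control and from 9.68 to 10.62 (median 10.06) in mutant intact, a log2 fold change of 0.91 (SE 0.37, adjusted p = 0.0593) without overlap of the groups. The SE draws on the spread of all 3 groups, and the SD of Isg20 was 0.76 in mutant castrated against 0.39 in mutant intact. Isg20 was called in 7 of 29 fits, counting the main one.

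The GTPase Mx1 measured 8.91, 8.94 and 8.98 in control and from 8.62 to 10.01 (median 9.38) in mutant intact (log2 fold change 0.41, adjusted p = 0.443). Many laboratory mouse strains carry defective copies of Mx1 and Mx2. The nucleotide hydrolase Samhd1 measured 10.56, 10.40 and 10.42 in control and from 10.06 to 11.55 (median 10.76) in mutant intact (log2 fold change 0.31, adjusted p = 0.326). For Mx1 and Samhd1 the groups overlapped. Ifit1 was above background on 1 castrated array and on no intact array, so nothing can be said of its level from this probe.

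Of 5 sensors of RNA or DNA 3 were higher. Dhx58, the RNA helicase LGP2, measured 7.92, 7.73 and 7.34 in control and from 10.73 to 11.60 (median 11.45) in mutant intact, 12.6-fold higher (adjusted p = 6.84e-06), with 2 of 3 control arrays above background. Ddx58, the RNA sensor RIG-I, was 4.27-fold higher, and Eif2ak2, the kinase PKR that halts translation on binding double-stranded RNA, was 3.73-fold higher. The sensor Ifih1 was not called, with 6.99, 6.95 and 7.04 in control and from 6.97 to 7.54 (median 7.24) in mutant intact, where 2 of 6 arrays exceeded background. Zbp1, a sensor of left-handed nucleic acid, was not called either, with 8.09, 8.01 and 7.95 in control and from 7.82 to 8.36 (median 8.19) in mutant intact (adjusted p = 0.494).

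Of 5 transcription factors 4 were higher. Irf7, which amplifies type I interferon production, measured 7.65, 7.43 and 7.32 in control and from 10.62 to 12.09 (median 11.50) in mutant intact, 16-fold higher (adjusted p = 1.22e-05), also with 2 of 3 control arrays above background. Irf1, a factor with a GAS in its promoter, was 2.95-fold higher with an SD of 0.12 in each of the 2 groups, and all 5 of its probes averaged higher. Irf9 (2.85-fold) and Stat2 (2.04-fold), the partners in the ISRE-binding complex, were also higher. Irf8, a factor of myeloid cells, was not called. It measured 9.48, 9.30 and 9.64 in control and from 8.77 to 10.23 (median 8.92) in mutant intact, where replicate 1 alone exceeded every control array. Without that replicate Irf8 was called lower (log2 fold change -0.59, limma adjusted p = 0.022), the only 1 of 29 fits to call it. Leaving out the highest array lowers the mutant intact mean by construction, so this call is no further test.

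Of 7 interferon-inducible GTPases, which attack the membranes around intracellular microbes, 4 were higher. Gbp3 measured 7.50, 7.79 and 7.75 in control and from 10.36 to 11.73 (median 11.07) in mutant intact, a 10.4-fold difference. Gbp2 measured 8.54, 8.70 and 8.55 in control and from 10.55 to 12.56 (median 11.63) in mutant intact, a 7.98-fold difference (adjusted p = 2.33e-06). Igtp was 7.39-fold and Ifi47 at least 5.78-fold higher, and all 4 lay apart from control on every array.

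The other 3 GTPases were not called. Irgm1 measured 13.32, 13.20 and 13.16 in control and from 12.87 to 13.49 (median 13.41) in mutant intact (adjusted p = 0.494), but its probes disagreed. A dimmer Irgm1 probe averaged 8.47 in control and 10.94 in mutant intact, a log2 difference of 2.46. Iigp1 was above background on 1 array in each group, with 7.45, 7.08 and 7.18 in control and from 7.02 to 7.31 (median 7.18) in mutant intact. The Tgtp probe, which cannot tell near-identical copies of that gene apart, measured 7.34, 7.12 and 6.98 in control and from 6.97 to 7.67 (median 7.39) in mutant intact (adjusted p = 0.213). Neither Iigp1 nor Tgtp gives more than a reading near background.

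The chemokines Cxcl9 (3.58-fold, adjusted p = 0.0138) and Cxcl10 (at least 4.08-fold, adjusted p = 0.00279), which draw activated T cells through the receptor Cxcr3, were both higher in mutant intact prostate. They were led by different mice. Cxcl9 was highest in mutant intact replicate 1, at 11.20 against 9.35 or less on the other arrays of the group, and Cxcl10 was highest in replicate 2, at 10.97 against 9.80 or less. Of the remaining tested members, Trim30a measured 8.11, 7.50 and 7.43 in control and from 9.37 to 11.09 (median 10.90) in mutant intact, a 7.99-fold difference. Trim30a is a mouse TRIM protein that restrains innate signalling. Parp14, an ADP-ribosyltransferase, was 6.93-fold higher and Ifi35 3.12-fold higher, while Ifi44 was at least 1.01-fold higher near background and Xaf1 was above background on no array.

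**Figure D2:**
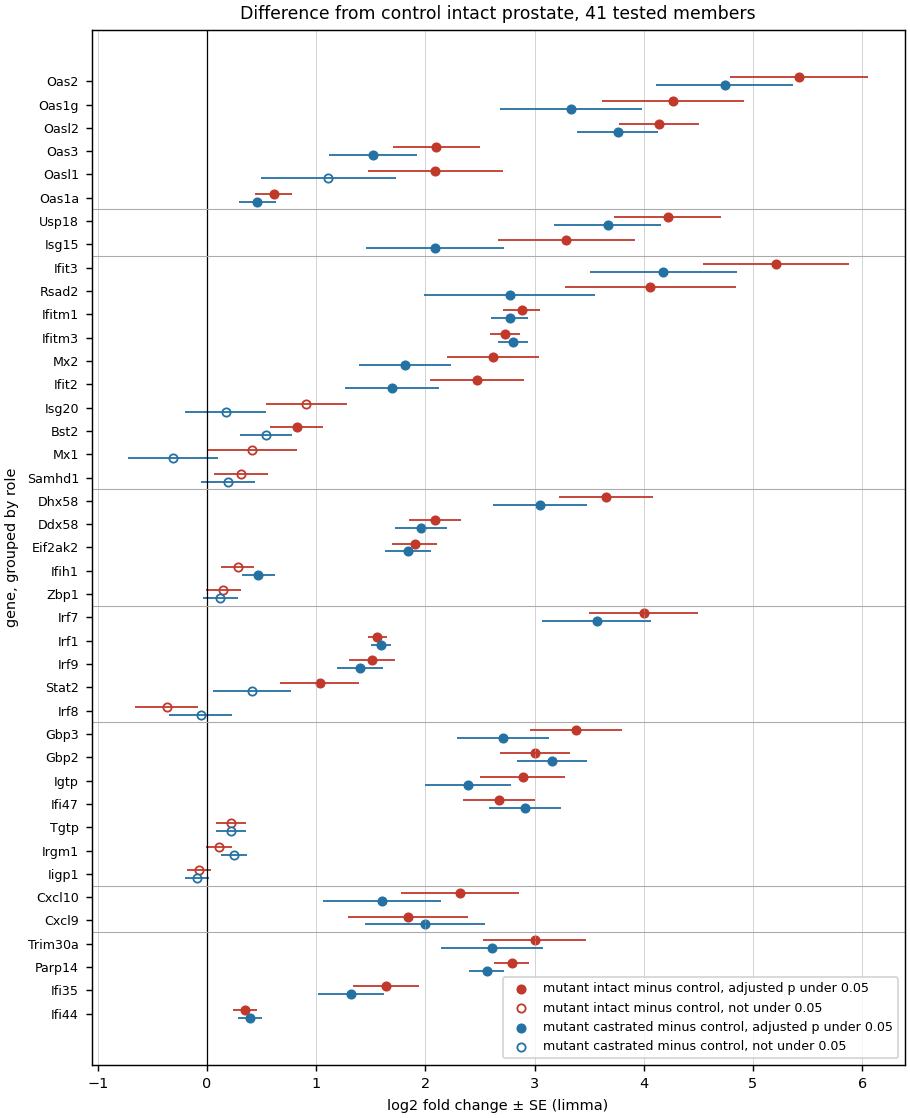
Log2 fold change against control (x axis, with limma SE as bars) of 41 tested interferon-stimulated genes, grouped by role, for mutant intact (red) and mutant castrated (blue) prostate. Filled points passed an adjusted p of 0.05 (32 and 30 genes), open points did not, and both comparisons share the same 3 control arrays.

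Interferon-induced genes outside the list, taken from a further set of 42 names, moved the same way. Of 32 tested, 27 were higher in mutant intact than in control and 0 were lower, with a median log2 fold change of 1.49. The largest by fitted log2 fold change were the secreted lectin-binding protein Lgals3bp (22-fold), the galectin Lgals9 (10.4-fold), the GTPase Irgm2 (9.22-fold), Shisa5 (5.71-fold), Epsti1 (at least 4.90-fold), Ube2l6 (at least 4.83-fold) and Cmpk2 (5.05-fold). Ube2l6 is the enzyme that hands ISG15 to its targets.

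The genes that make and carry the signal moved less. Of 39 tested genes for ligands, receptors, kinases, STAT proteins, inhibitors and the induction of interferon, 17 were higher and 6 lower in mutant intact prostate, with a median log2 fold change of 0.37. Interferon genes themselves were mostly at background. Of 18 with a probe 6 were tested, and 1 (Ifne, 1.29-fold) was higher and 2 (Ifna6 and Ifnab) were lower. The Ifnb1 probe exceeded background on 2 mutant intact arrays and no others, and that of Ifng on 4 castrated arrays and no others. Among 5 tested receptor genes Il10rb (2.65-fold) and Ifnlr1 (1.77-fold), which pair as the receptor for type III interferon, were higher, and Ifngr2 was 1.23-fold lower. Ifnar2 (log2 fold change 0.16, adjusted p = 0.507) was not called, and Ifnar1 was at background.

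Among 6 kinases and STAT proteins 3 were higher and 0 lower, among 7 inhibitors 2 were higher and 1 lower, and among 15 genes of interferon induction 9 were higher and 2 lower. Socs3, an inhibitor of cytokine signalling, was 4.29-fold higher. The DNA-sensing adaptor Sting1 was 3.97-fold and the DNA sensor Cgas 2.63-fold higher, Irf5 was at least 2.50-fold and the signalling adaptor Traf3 2.20-fold higher. Irf3, the factor that these adaptors activate, was 1.21-fold lower (adjusted p = 0.038).

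Cell type markers were read in the same comparison, in which 18.2% of all genes tested were called higher and 25.3% lower. Of 15 tested macrophage and dendritic cell markers 12 were higher in mutant intact than in control, and their summed intensity over 17 genes was 5791 to 7226 in control, 21957 to 153686 in mutant intact and 28745 to 41091 in mutant castrated prostate. Of 10 tested T and NK cell markers 6 were higher and 1 lower, with summed intensities over 14 genes of 4838 to 6863, 4622 to 9600 and 5915 to 11272. The lower one, Prf1, was the brightest of them in control (mean log2 intensity 11.81) and weighs most in the control sums. The T cell gene Cd3e was above background on 1 control array and on every mutant array. Of 6 plasmacytoid dendritic cell markers 1 was higher, and Siglech was not called. B and plasma cell markers were higher in 2 of 7, neutrophil markers in 3 of 7, endothelial markers in 3 of 7 with 1 lower, luminal markers in 3 of 9 with 2 lower and seminal vesicle markers in 0 of 6. Ptprc, the common leukocyte antigen, exceeded background on 0 of 3 control and 3 of 6 mutant intact arrays. The part of these cells in the levels of the interferon-stimulated genes was not tested.

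Castrated mutant prostate was compared with intact mutant prostate next. No member was called in either direction in limma, and 0% of all genes tested were called higher and 0% lower. Without adjustment 5 of 41 members (Ifit2, Isg20, Mx1, Mx2 and Isg15), all lower in castrated mice, had p under 0.05 in limma. Of all 16723 genes tested 2622 did, so the share among the members was no larger. The log2 fold change was below 0 in 32 of 41 members, with a median of -0.32, and in 47.0% of all genes tested. It lay between -1.29 (Rsad2, SE 0.64, adjusted p = 0.345) and 0.31 (Irf8, SE 0.24, adjusted p = 0.578). The groups overlapped in all 41 members.

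Against control, castrated mutant prostate had 30 of 41 members higher, 0 lower and 11 not called, while 19.9% of all genes tested were called higher and 24.5% lower. Oas2 was at least 24.2-fold, Ifit3 18.2-fold, Oasl2 13.6-fold and Usp18 12.7-fold higher. Bst2, Oasl1 and Stat2 were called in mutant intact against control but not here, and Ifih1 (adjusted p = 0.0222) was called here alone. Without castrated replicates 4 and 6 the log2 fold changes were 1.84 for Oasl1, 0.86 for Stat2 and 0.76 for Bst2. All 3 were then called in limma (adjusted p = 0.00381, 0.0144 and 0.0144). Those arrays were singled out from the data and were the lowest 2 castrated arrays for each of the 3 genes. Leaving them out raises the castrated means by construction, so these calls are no further test. Without the 4 intact arrays high in Pate4, 17 of 41 members were higher, the median log2 fold change of the members was 1.61 in place of 1.81, and the genes called higher fell from 3334 to 1609 of 16723. The difference between these comparisons is the test of castrated against intact mutant prostate given above, which called none of them. Both comparisons use the same 3 control arrays.

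Castrated arrays differed widely among themselves in these genes. The median SD of the members was 0.17 log2 units in control, 0.35 in mutant intact and 0.70 in mutant castrated, against 0.13, 0.17 and 0.16 over all genes tested. The SD was larger among castrated than among mutant intact arrays in 31 of 41 members, and in 47.1% of all genes tested. It reached 1.65 for Rsad2, 1.54 for Ifit3, 1.49 for Oas2, 1.48 for Isg15, 1.47 for Oas1g, 1.37 for Oasl1, 1.09 for Irf7 and 1.04 for Usp18. By role, the median castrated SD was 1.26 over 2 genes of the ISG15 system, 1.16 over 6 OAS genes, 0.88 over 2 chemokines and 0.81 over 10 antiviral effectors. It was 0.46 over 4 other members, 0.40 over 5 sensors, 0.40 over 5 transcription factors and 0.39 over 7 GTPases.

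Castrated replicates 4 and 6 were the lowest 2 of 6 castrated arrays in 33 of 41 members. Among all genes tested these arrays were the lowest 2 in 9.77%. The following values describe this pattern, which was known when the list was proposed, and no test was made of it. Oas2 measured 9.76 and 10.43 in replicates 4 and 6, and 12.77 to 13.32 in the other 4 castrated mice. Oas1g measured 9.79 and 9.29 against 12.26 to 12.57. Ifit3 measured 10.60 and 11.64 against 13.46 to 14.64. Without these 2 arrays, an alternative chosen after seeing the data, the median castrated SD of the members was 0.29 and that of all genes tested 0.16, and the SD exceeded that of mutant intact arrays in 17 of 41 members and in 44.4% of all genes tested. Isg15 (SD 1.05) and Rsad2 (SD 1.01) still spread widely among the remaining 4 castrated mice. In Oas2, Oas1g and Ifit3 the 4 other castrated mice were close to the intact mutant mice, and replicates 4 and 6 lay between them and control.

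Some members were near control levels in the same animals. Isg15 measured 8.08 and 8.05 in replicates 4 and 6, against 9.58 to 11.92 in the other castrated mice and 7.48 to 7.65 in control. Rsad2 read 8.37 and 9.88 there against 10.79 to 13.12 in the others, and the highest control was 8.31. Oasl1 measured 7.97 and 9.21 against 9.97 to 11.99, so that replicate 4 lay below all 3 controls. Mx1, at 7.60 and 7.68, was also below its controls. Usp18 measured 10.81 and 11.14 against 12.55 to 13.40, and Irf7 9.41 and 9.96 against 11.34 to 12.10, both still above control.

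**Figure D3:**
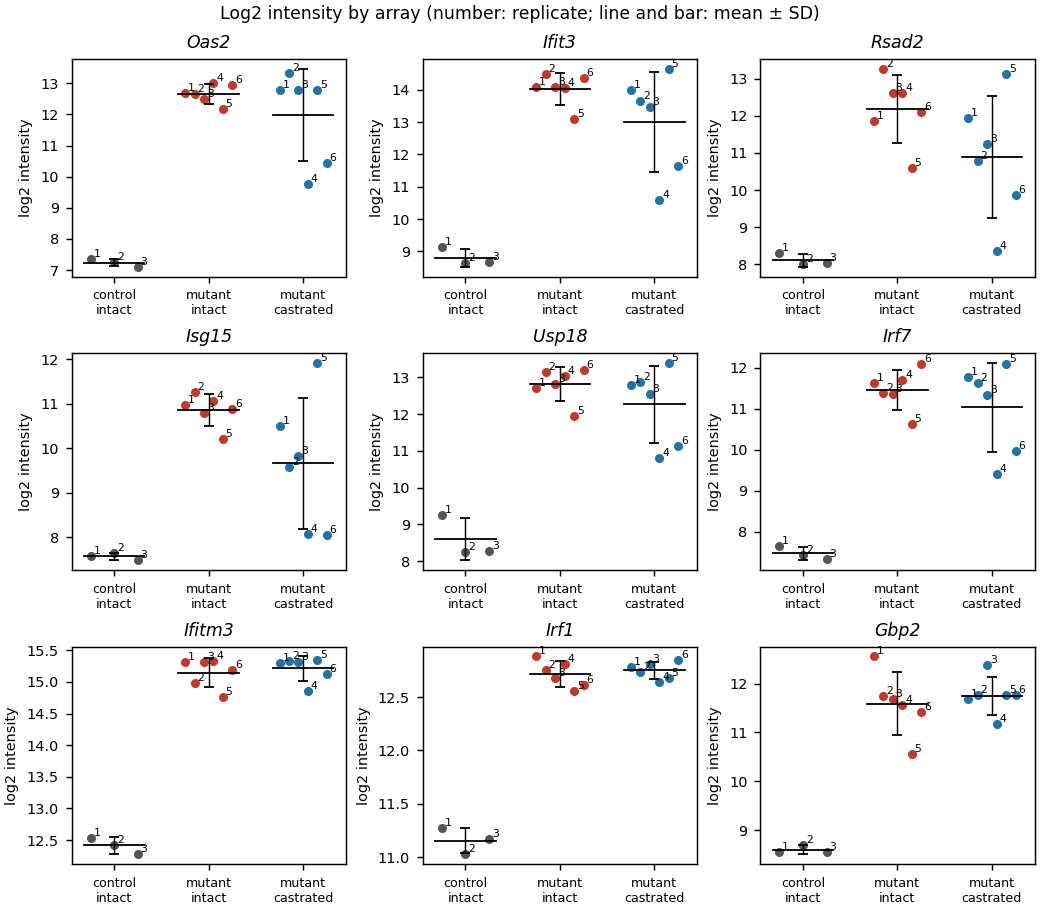
Log2 intensity (y axis) of 9 interferon-stimulated genes in 3 control intact, 6 mutant intact and 6 mutant castrated mice. Points are arrays with their replicate number, and lines and bars are mean ± SD. Castrated replicates 4 and 6 lie apart for Oas2, Ifit3, Rsad2, Isg15, Usp18 and Irf7, and close to the others for Irf1.

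In 8 members (Oas1g, Oas2, Ifit3, Isg15, Usp18, Irf7, Dhx58 and Oas3) replicates 4 and 6 both lay at least 1 log2 unit below every other castrated array. Only 22 of all genes tested did so (0.132%). Of the other 14, chosen here after their values were seen, Ube2l6 is in the further set of interferon-induced genes. Of the 13 in none of the lists, 8 were called higher in mutant intact than in control. Among them were Ifit3b, Apol9a, Apol9b and Ido1, with log2 fold changes of 3.99, 4.14, 3.92 and 3.26. Cap1 (0.15), Camk2b (-0.69), Anxa13 (0.56) and Ccng2 (-0.42) were not called in that comparison. Of the further 32 interferon-induced genes, replicates 4 and 6 were the lowest 2 in 24, and of the 39 pathway genes in 3.

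The 8 tested members in which replicates 4 and 6 were not the lowest 2 were Irf1, Irf8, Samhd1, Irgm1, Iigp1, Gbp2, Tgtp and Ifi47. Of these 5 are GTPases, but Iigp1 and Tgtp read near background, where the order of arrays carries little. Irf1 measured 12.64 and 12.85 against 12.68 to 12.81 in the other castrated mice. Ifi47 measured 9.53 and 10.22 against 9.87 to 10.62, and Gbp2 measured 11.17 and 11.76 against 11.68 to 12.39. For some of these the probe matters. One dimmer Irgm1 probe read 10.07 and 10.17 against a median of 11.08 in the other castrated mice, and another 7.35 and 7.38 against 7.94. A dimmer Irf1 probe read 8.90 and 8.88 against 9.64. Dimmer Ifitm1 probes read higher in replicates 4 and 6, at 12.25 and 12.58 against a median of 11.50 on one and 8.40 and 8.52 against 8.03 on another, while the brightest probe read 14.56 and 14.83 against 15.01. Ifitm3 differed little, at 14.86 and 15.12 against a median of 15.33 in the other castrated mice. Replicates 4 and 6 were still the lowest 2 castrated arrays for Ifitm3.

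**Figure D4:**
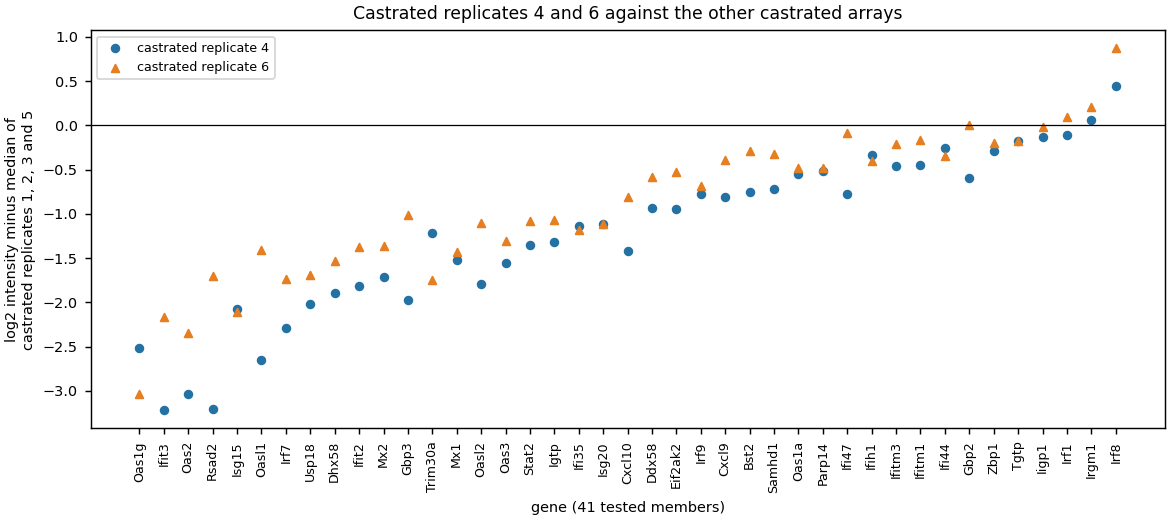
Log2 intensity of castrated replicates 4 (circles) and 6 (triangles) minus the median of castrated replicates 1, 2, 3 and 5 (y axis), for 41 tested interferon-stimulated genes in order of the mean of both (x axis). Oas1g, Ifit3 and Oas2 lie lowest, and Irf8 lies above 0 in both.

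Promoter letters and this pattern were set side by side. Of 26 tested members with a promoter in which replicates 4 and 6 were the lowest 2, 16 held an ISRE core, and of the other 6 tested members with a promoter 2 did. The median difference of replicates 4 and 6 from the other castrated mice was -1.16 in the 18 members with an ISRE core and -0.67 in the 14 without. For the GAS it was -0.52 in the 11 members with one and -1.22 in the 21 without. A GAS was held by 8 of the 26 members with the pattern and by 3 of the other 6. Irf7, Oasl1 and Oasl2 showed the pattern with no ISRE core in the stretch searched, and Gbp2 and Irgm1 hold one and did not show it. For Irgm1 this rests on the brightest probe, since both dimmer probes read lower in replicates 4 and 6 than the median of the others.

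The labels and other lists give the following for these 2 mice. Castrated replicates 4 and 6 have the mouse ID numbers 4450 and 4453, and replicate 5 has 4644, while the other 12 mice have numbers below 4000. Replicate 5 was the highest castrated array in 28 of 41 members (68.3%, against 18.4% of all genes tested). The part of a shared cohort was not tested. The summed intensity of macrophage and dendritic cell markers was 32825 and 41091 in replicates 4 and 6, and 28745 to 40839 in the other castrated mice. For T and NK cell markers it was 10055 and 11272 against 5915 to 10052. The brightest of these markers in castrated mice were Ccl5 and Prf1 (mean log2 intensity 11.22 and 10.79), which weigh most in the sum. The summed intensity of neutrophil markers was 7117 and 14743 against 9850 to 19102, and that of endothelial markers 2527 and 3553 against 3118 to 3392. Replicate 4 was the lowest castrated array for both. Plasmacytoid dendritic cell markers summed to 6525 and 7314 against 4350 to 7015, and B and plasma cell markers to 2439 and 2450 against 1469 to 2687. Luminal markers summed to 71226 and 65861 against 67917 to 74228. The seminal vesicle transcript Pate4 measured 7.19 in replicate 4 and 14.35 in replicate 6. The part of these cells in the low values was not tested.

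**Figure D5:**
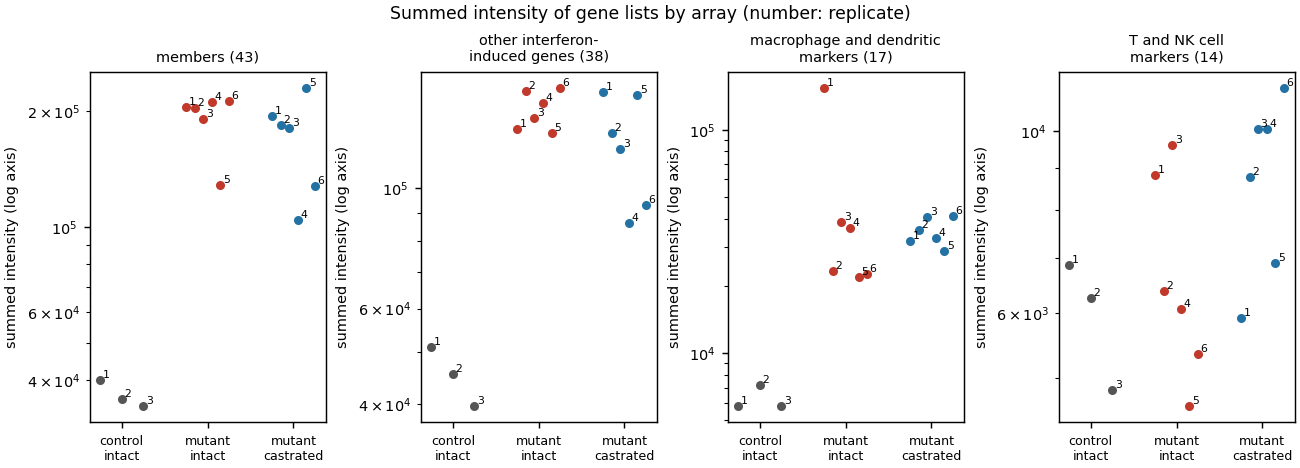
Summed intensity (y axis, log scale) of 4 gene lists on each array of the 3 groups, with the replicate number beside each point. Castrated replicates 4 and 6 are the lowest 2 castrated arrays for the members (104114 and 127731) and for the other interferon-induced genes, and not for the macrophage and dendritic or T and NK cell markers.

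Among intact mutant mice, replicate 5 had the lowest value in 36 of 41 members (87.8%, against 17.3% of all genes tested). The summed intensity of the members was 128878 in that mouse and 190988 to 212269 in the other mutant intact mice, against 34249 to 39934 in control. Rsad2 measured 10.60 there against 11.85 to 13.26 in the others, and Ifi47 8.55 against 9.95 to 10.44. Its summed intensities of macrophage and dendritic markers (21957) and of T and NK cell markers (4622) were the lowest of the group. Replicates 6 and 2 had macrophage and dendritic sums close to it, 22515 and 23401, with member sums of 212269 and 203494. Neutrophil markers were lowest in replicate 6 (3216, against 3407 in replicate 5), and B and plasma cell markers in replicate 2 (1344, against 1369). Their part in the low values of the members was not tested.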

How the data were processed

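Expression was measured with single-colour Illumina bead arrays on total RNA amplified and labelled with biotin, per the labels' protocols. The authors deposited processed intensity values of 45281 probes on a linear scale, whose correction and scaling the sources used here do not give. The 15 signal columns of the table that is not normalized are named by chip position, could not be tied to mice and were not used, so chips were not used as a batch. Probe symbols were updated through a RefSeq table (GRCm38.p6), with 27760 probes current, 7994 older, 933 matched by gene number, 187 ambiguous and 8407 unmatched. A probe was tested if it exceeded the 95th percentile of receptor probes on at least 3 arrays.

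Log2 intensities were fitted with limma 3.58.1 (R 4.3.3), 1 mean per group over all 15 arrays, eBayes, two-sided, Benjamini-Hochberg over all genes. A fold is given as "at least" where no array of the dimmer group exceeded background, from the higher of limit and value. Members and lists were chosen with earlier results of these data known. Named with values were the 12 largest folds, the 8 largest castrated SDs, members not called, and the largest folds of each further list. A pathway gene that falls under this rule is not reported. The fit was tested on simulated data, and the number of arrays limits the precision.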

Additional observations from a re-analysis of the deposited data

Results flagged for a closer look

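Of 86 groups of 6 arrays (43 members in mutant intact and mutant castrated prostate), 6 held an array far from the others by Dixon's ratio of gap to range, and chance alone marks about 1 group in 20. Mutant intact replicate 5 was the low array for Ifi47 (8.55, next 9.95), Ifit3 (13.09, next 14.04), Irgm1 (12.87, next 13.36) and Trim30a (9.37, next 10.75). Mutant intact replicate 1 was the high array for Irf8 (10.23, next 8.99), and it also had the highest summed intensity of macrophage and dendritic cell markers, 153686 against 38542 or less on the other arrays of its group. Castrated replicate 3 was the high array for Cxcl9 (11.05, next 9.48).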

How the results depend on the processing

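The counts of members called were computed under 28 alternatives of the brightness filter, probe choice, normalization, fit and arrays used. Leaving out each array in turn gave 29 to 33 members called in mutant intact against control and 27 to 32 in mutant castrated against control. In castrated against intact mutant prostate it gave 0. Without castrated replicate 4, 5 or 6, 33 members were higher in mutant intact than in control and 0 lower, with Isg20 among them. Without mutant intact replicate 1, 32 were higher and 1, Irf8, was lower. The counts moved by over 1.5 times where the 4 intact arrays high in seminal vesicle transcripts (control replicates 2 and 3, mutant intact replicates 2 and 3) were left out, to 18 and 17 of 41, with 1 control array left, which is assumed to vary like the other groups. With those arrays out, the median log2 fold change of the members was 2.02 and 1.61. In every alternative 18 of the 32 and 17 of the 30 members stayed called.

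In castrated against intact mutant prostate no member was called under any alternative, also where array weights called 395 genes higher and 218 lower, or where leaving out castrated replicate 1 or 5 called 192 and 75 or 150 and 82. Without castrated replicates 4 and 6 the median of the members was 0.02 in place of -0.32, and the log2 fold change turned to 0.26 (Oas2), 0.01 (Oas1g), 0.09 (Usp18, Oasl2 and Trim30a) and 0.25 (Irf7). Without the castrated mice with ID numbers above 4000 it turned to 0.31 (Oas2), 0.02 (Oas1g) and 0.12 (Irf7). That of Gbp2, 0.16 as fitted, turned to -0.02 with the mean of probes and to -0.05 without mutant intact replicate 5, within a range of -0.05 to 0.35 over arrays left out in turn. None of these was called. The median castrated SD of 0.70 was 0.70 after quantile normalization and 0.66 with the mean of probes. In alternatives chosen after seeing the data it was 0.29 without castrated replicates 4 and 6, 0.64 without replicate 5 and 0.23 without all 3.

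No paired analysis was possible because the labels state no litter or batch shared between mice. Replicate numbers follow accession order, and neighbouring mouse ID numbers are not said to mark one. Control rests on 3 arrays, and dim probes give bounds alone.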
